A study of Mus musculus with 12 samples.

Results

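The mRNAs of 43 genes for glutamate receptors, their auxiliary proteins and the scaffolds that hold them at the synapse were followed through fear conditioning and extinction in the mouse basolateral amygdala. The genes were taken by symbol from a table of 22564 genes by a rule that uses no measured value, though it was drawn up with earlier results of these data known, and all 43 were found. They comprise 4 AMPA, 7 NMDA and 5 kainate receptor subunits, 1 delta receptor, 6 metabotropic receptors, 5 AMPA and 2 kainate receptor auxiliary proteins and 13 scaffolds. Mean levels over all libraries ran from 0.0689 to 255 FPKM (fragments scaled by transcript length and by library size, so that levels of different genes can be compared), and 42 of the 43 reached the 0.5 FPKM needed for testing. The exception was Grin3b, an NMDA receptor subunit of restricted expression, whose values ran from 0 to 0.318 FPKM.

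The animals were 12 male C57BL/6J mice of 10 weeks, 3 in each of 4 groups. Mice of the F group learned to fear a tone that was paired with foot shock, and controls went through the same handling and tones without shock. On the day after such conditioning, E mice were given extinction, meaning repeated tones without shock, and RE mice were given retrieval-extinction, in which a single reminder tone and a rest in the home cage came before the extinction tones. Tissue was taken about an hour after the last session, so controls and F mice were sampled a day earlier than E and RE mice, and the day and the treatment cannot be told apart between these pairs. All E and RE mice had also been conditioned. By the study's methods each library is a separate mouse, and the labels number these 1 to 3 in control, F and E and 3 to 5 in RE.

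Glutamate is the main excitatory transmitter of the brain. AMPA receptors carry most of the fast excitatory current, NMDA receptors admit calcium when transmitter release coincides with depolarisation and are needed for the acquisition of fear and of extinction in the amygdala, kainate receptors modulate release and excitability, and metabotropic receptors act through G proteins. In the postsynaptic density, PSD-95 and its relatives bind receptor tails, the guanylate kinase-associated proteins (Dlgap) bind to these, and Shank and Homer proteins link that layer to the actin skeleton and to group I metabotropic receptors.

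Depth ran from 7653906 fragments (E 1) to 23167365 fragments (control 1) per library, and E 1 was the shallowest. Control 2, F 1, E 2 and RE 4, which is 1 library of each group, were known from earlier work on these data to stand apart from the other 8. On the first principal component of the mRNA levels, which held 25.7% of the variance, the 4 lay between 13.7 and 41.9 and the 8 between -32.4 and 0.493. Of the 42 members tested, 26 were higher in the 4 than in the 8, and 9 (21.4%) did not overlap between them, against 9.85% of all genes tested. These 9 were Gria1, Grin2c, Grik4, Grik5, Grid1, Cnih2 and Cacng8, higher in the 4, and Grin2b and Neto1, lower in the 4. The counts for E against F and for RE against E, and some single genes, are also given for the 8 libraries alone.

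The tissue showed markers of its own principal cells, and no marker gene in the table was at 0 in every library. The 9 principal neuron markers (among them Rspo2, Neurod6, Neurod2, Slc17a7 and Camk2a) summed to 961 to 1074 FPKM in control, 1137 to 1485 in F, 747 to 940 in E and 1030 to 1275 in RE, so that the E libraries lay below all others. Most of this sum came from Camk2a (group means 488 to 662 FPKM) and Slc17a7 (216 to 310 FPKM), which are also on the list of other synaptic genes below. Summed GABAergic neuron markers were 188 to 253 FPKM in control, 174 to 190 in F, 253 to 287 in E and 180 to 235 in RE. The striatal and intercalated neuron list summed to 968 to 1230 FPKM in E and 333 to 890 in F, but covered 290 to 1389 within control alone. In bulk tissue, fewer cells of a type and less RNA per cell cannot be told apart.

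**Figure D1:**
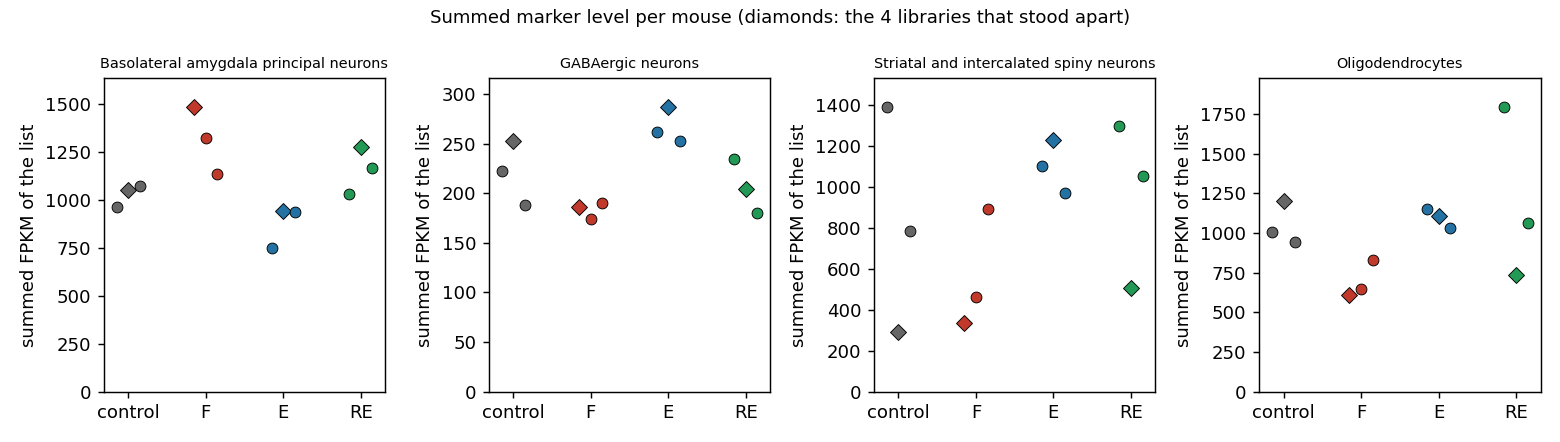
Summed FPKM of 4 marker lists in each mouse (points), by group, with diamonds for control 2, F 1, E 2 and RE 4. The 3 E libraries have the lowest principal neuron sums (747 to 940 FPKM) with F (1137 to 1485 FPKM) and RE (1030 to 1275 FPKM) above them and overlapping, while for GABAergic neurons E lies above F.

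Scaffold mRNAs were the most abundant members. Dlg4, which encodes PSD-95, had the highest mean of all at 255 FPKM, followed by Shank1 at 201, Dlgap1 at 174 and Dlg2 at 170 FPKM. The range of Dlg4 (214 to 286 FPKM) overlapped that of Shank1 (156 to 256 FPKM) but not that of Dlgap1 (147 to 201 FPKM), and Dlgap1 and Dlg2 (158 to 183 FPKM) overlapped. Among subunits of ion channels, Grin2b (136 FPKM) and Grin1 (118 FPKM), the obligatory NMDA receptor subunit, led, ahead of Gria1 (107 FPKM) and Gria2 (103 FPKM), the AMPA subunit that limits calcium entry. All of these overlapped in range. Grm5, a group I metabotropic receptor, was the highest of its class with 80.8 FPKM, and Cnih2, a cornichon that slows AMPA receptor deactivation, the highest auxiliary protein with 63.3 FPKM. The lowest tested members were Homer3 (2.19 FPKM) and Grin2d (2.6 FPKM), an NMDA subunit found mostly in interneurons, both of which overlap a coding gene on the opposite strand.

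**Figure D2:**
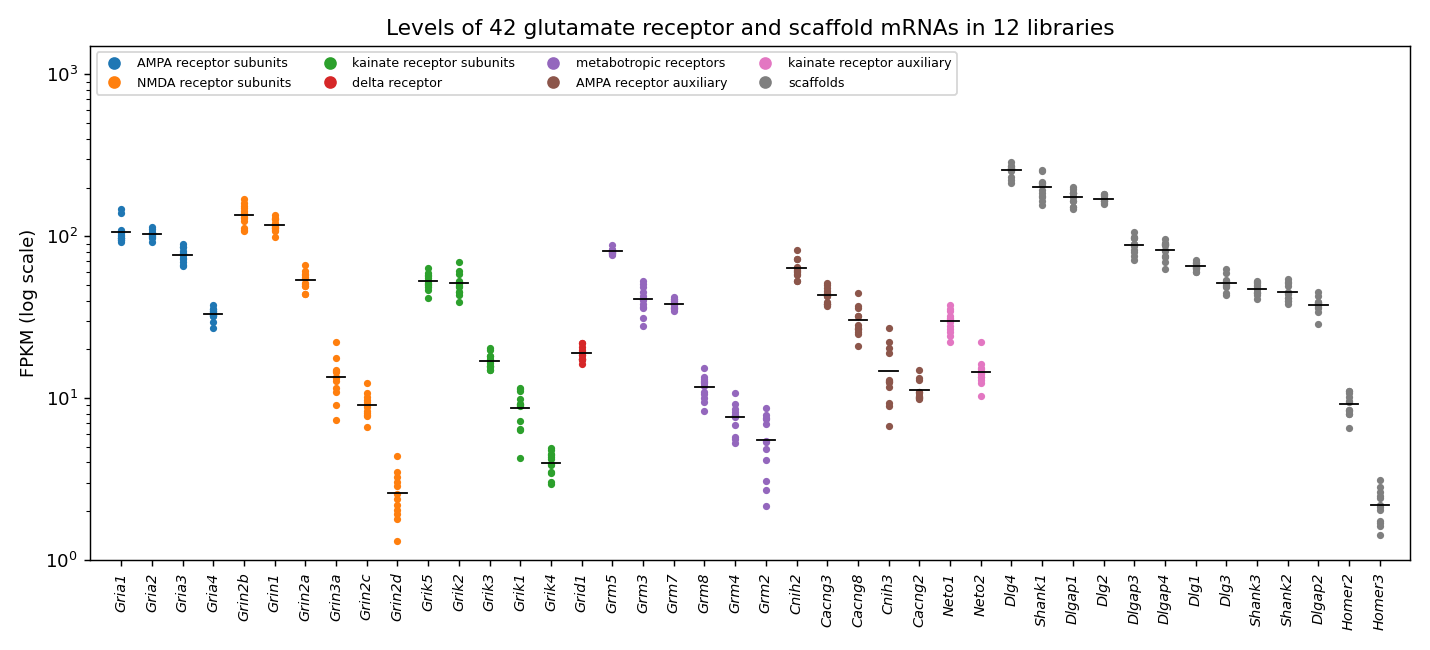
FPKM (log axis) of the 42 tested members in each of the 12 libraries (points) with the mean (bar), coloured by role and ordered by mean within each role. Scaffolds reach the highest levels, with Dlg4 at a mean of 255 FPKM, and Cnih3 and Grm2 spread most widely between libraries.

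Spread between libraries differed widely among the 42 tested members. Grm5 was the steadiest, with a coefficient of variation of 3.49% over all 12 libraries, and Dlg2 had 4.8%. At the other end stood Cnih3 with 41.7% and Grm2 with 39.8%. Grm2 is the presynaptic group II receptor that lowers glutamate release, and rested on 65 to 611 fragments per library, against 2735 to 9277 for Shank2. Homer3 had fewer fragments still, 29 to 97, and a coefficient of variation of 23.6%.

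No member passed an adjusted p of 0.05 in limma in a test for any difference among the 4 groups, where 0.303% of all 13517 genes tested passed. At an unadjusted p under 0.05, 8 of 42 members (19%) were below the threshold against 10.5% of all genes. In order of p these were Shank2, Grm2, Grin2a, Homer3, Grik3, Dlg4, Grm3 and Dlgap1, with Shank2 lowest (adjusted p = 0.166 in limma). The group means had an uneven order: F had the highest mean for 20 of 42 members, as it did for 25.8% of all genes, and E the lowest for 16 of 42, as it did for 19.4% of all genes. These shares are a description, and members are not independent of each other.

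Extinction was compared with fear conditioning to see how receptor and scaffold mRNAs differ between the state after acquisition and the state after extinction. Members were lower in E for the most part: 29 of 42 (69%) had a fold change below 0 and 13 above 0, against 45.7% and 54.2% of all genes, and the median of the members was -0.14 on the log2 scale against 0.02 for all genes. None passed an adjusted p of 0.05 in limma, where 0.0814% of all genes did. At an unadjusted p under 0.05, 11 of 42 (26.2%) were lower and 2 (4.76%) higher, against 4.53% and 6.27% of all genes. Without overlap between the groups, 13 members (31%) were lower and 3 higher, with 7.55% and 11.4% for all genes. The count of 11 was 13 in the 8 libraries alone, and 6 without E 1, the shallowest library. The share of all genes in those runs is not given. Over the principal neuron markers, 9 of 9 were lower in E than in F (median -0.70, with Neurod2 at -0.91 ± 0.14, SE, adjusted p = 0.0469 in limma), and 5 of 6 GABAergic markers were higher (Gad2 at 0.75 ± 0.10, adjusted p = 0.0373). Oligodendrocyte markers were higher in 7 of 7 (median 0.71), striatal markers in 9 of 9 (median 1.19) and endothelial markers in 5 of 5 (median 0.27). The part of these in the members' differences was not tested.

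The member of smallest p was Shank2, a master scaffold that ties the Dlgap layer to Homer and actin (chr7:144001928-144424494, plus strand, GRCm38). Its levels were 43.9, 44.4 and 49.0 FPKM in control, 52.3, 54.6 and 51.2 in F, 38.3, 40.0 and 41.8 in E and 40.0, 41.7 and 45.5 in RE. All 3 F libraries stood above every other library, and all 3 E libraries below every control library. The difference between E and F was -0.39 ± 0.08 on the log2 scale (SE, 95% interval -0.58 to -0.21, adjusted p = 0.103 in limma). RE was also lower than F, by -0.31 ± 0.08 (adjusted p = 0.635 in limma), and RE minus E was 0.08 ± 0.08 with an interval of -0.10 to 0.26.

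Other scaffolds had similar or smaller differences. Dlg4 (chr11:70016942-70047522, plus strand) measured 261, 265 and 257 FPKM in control and 273, 271 and 263 in F, but 214, 233 and 223 in E and 259, 254 and 286 in RE. All 3 E libraries lay below the other 9. E minus F was -0.27 ± 0.09 (adjusted p = 0.238), E minus control -0.22 ± 0.09 (adjusted p = 0.895) and RE minus E 0.25 ± 0.09 (adjusted p = 0.277, all in limma). Dlgap1 (chr17:69969073-70821413) was 196, 201 and 186 FPKM in F and 147, 151 and 165 in E. These did not overlap (-0.33 ± 0.10, adjusted p = 0.212 in limma), and its control libraries, at 152, 176 and 186 FPKM, spanned both. Shank1 gave -0.43 ± 0.14 (adjusted p = 0.273 in limma) with an antisense coding gene in its locus. Of the 13 scaffolds, 11 were lower in E than in F, 4 of them at an unadjusted p under 0.05 (Shank2, Dlgap1, Dlg4 and Shank1), and Homer3 and Dlg1 were the 2 above 0. For the relatives of Dlg4, which are Dlg1 (SAP97), Dlg2 (PSD-93) and Dlg3 (SAP102), and for Dlgap2, Dlgap3, Dlgap4, Shank3 and Homer2, p was above 0.05 in each contrast. Homer3 is treated further on.

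Among the receptors, the largest difference was that of Grm2 (chr9:106643095-106656082, minus strand). It was listed at 3.06, 6.93 and 4.83 FPKM in control, 8.63, 7.43 and 5.32 in F, 2.14, 2.72 and 4.14 in E and 7.56, 7.91 and 5.45 in RE. E lay below all F and RE libraries, and the control libraries overlapped all 3 other groups. E minus F was -1.24 ± 0.31 on the log2 scale (interval -1.92 to -0.57, adjusted p = 0.137 in limma), and RE minus E was 1.22 ± 0.31 (adjusted p = 0.128). In the 8 libraries alone these were -1.05 and 1.08. E minus control was -0.68 ± 0.31 (adjusted p = 0.972 in limma), -0.36 in the 8 libraries alone and -0.40 without control 2.

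Cnih3, a cornichon auxiliary subunit of AMPA receptors (chr1:181352628-181460641, plus strand), had the next largest difference. Its levels were 8.89, 20.3 and 11.7 FPKM in control and 27.1, 19.1 and 13 in F, and 6.76, 9.29 and 12.5 in E and 12.5, 22.3 and 12.7 in RE. F 1, RE 4 and control 2, all among the libraries that stood apart, were the highest of their groups. E minus F was -1.03 ± 0.35 (adjusted p = 0.286 in limma), which was -0.77 in the 8 libraries alone. Of the other auxiliary proteins for AMPA receptors, Cacng3, a transmembrane AMPA receptor regulatory protein, was lower in E (-0.26 ± 0.12, adjusted p = 0.448 in limma), and all 5 had values below 0. Cacng2 (stargazin) and Cacng8, of the same family as Cacng3, had no contrast with a p under 0.05. Cnih2 was 61.2, 72.8 and 60.2 FPKM in control, 82.1, 61.7 and 57.8 in F, 52.6, 64.6 and 58.8 in E and 63.2, 71.9 and 53.2 in RE, and the groups overlapped. The gene Yif1a overlaps its locus on the opposite strand.

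The bases upstream of the start are shown for Grm2 and Cnih3, the members with the largest differences between E and F, with the SP1 box GGGCGG (searched on both strands) in capitals. Both are the 250 bases upstream of the RefSeq start on GRCm38.p6, 5′ to 3′ on the gene's strand, at chr9:106656110-106656359 for Grm2 and at chr1:181352378-181352627 for Cnih3.
Grm2: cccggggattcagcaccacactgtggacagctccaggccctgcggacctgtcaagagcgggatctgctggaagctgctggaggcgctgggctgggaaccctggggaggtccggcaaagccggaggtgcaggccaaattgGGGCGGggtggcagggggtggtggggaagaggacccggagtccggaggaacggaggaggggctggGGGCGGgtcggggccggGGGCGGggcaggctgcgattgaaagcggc
Cnih3: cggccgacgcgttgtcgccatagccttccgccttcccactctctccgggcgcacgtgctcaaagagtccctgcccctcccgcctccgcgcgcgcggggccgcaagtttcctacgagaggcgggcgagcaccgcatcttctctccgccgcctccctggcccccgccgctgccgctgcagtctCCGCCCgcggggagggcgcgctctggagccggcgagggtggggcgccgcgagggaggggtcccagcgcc
Grm2 held 3 boxes and Cnih3 held 1, on the opposite strand and so written CCGCCC. Promoters were found for 30 members in 44 windows, of which 45.5% held GGGCGG, against 32.7% of all 32851 windows of this length. The cAMP response half-site CGTCA was in 9.09% of member windows and 17.8% of all, and the E-box CANNTG in 59.1% and 66.2%. Each motif was searched for on both strands with no check for overlap with the others, and such matches are descriptions of letters.

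Of the 6 NMDA receptor subunits tested, 3 were below 0 in E against F and 3 above. Grin2a (chr16:9567898-9995560, minus strand), the subunit that becomes prominent as synapses mature, was 51.0, 44.0 and 49.3 FPKM in control, 55.4, 58.7 and 66.4 in F, 43.7, 51.3 and 49.3 in E and 57.4, 56.1 and 61.3 in RE. All F and RE libraries were above all control and E libraries. E minus F was -0.32 ± 0.10 (adjusted p = 0.226), F minus control 0.32 ± 0.10 (adjusted p = 0.436), RE minus control 0.28 ± 0.10 (adjusted p = 0.347) and RE minus E 0.28 ± 0.10 (adjusted p = 0.324, all in limma). Grin1 was lower in E than in F by -0.20 ± 0.09 (adjusted p = 0.456) and higher in RE than in E by 0.26 ± 0.09 (adjusted p = 0.293 in limma). The most abundant subunit, Grin2b, was 129, 107 and 161 FPKM in control, 125, 150 and 171 in F, 131, 110 and 144 in E and 140, 113 and 153 in RE. The 4 libraries that stood apart were the lowest of each group, and E minus F was -0.21 with an interval of -0.58 to 0.17. For Grin2c and Grin2d no contrast had a p under 0.05, and Grin3a, a subunit that dampens NMDA receptor currents, was lower in RE than in control by -0.68 ± 0.26 (adjusted p = 0.38 in limma), with a calcineurin subunit gene (Ppp3r2) lying inside its locus. The groups overlapped, control 2 was the highest library at 22.1 FPKM, and the difference was -0.43 without it.

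The ratio of Grin2a to Grin2b, often used as a measure of receptor maturation, was therefore compared within libraries as a log2 ratio of FPKM. It was -1.34, -1.29 and -1.70 in control, -1.17, -1.35 and -1.36 in F, -1.58, -1.11 and -1.55 in E and -1.28, -1.01 and -1.32 in RE. The groups overlapped, and in each group the library that stood apart had the highest ratio: those 4 ran from -1.29 to -1.01 and the other 8 from -1.70 to -1.28. For Gria1 over Gria2, control 2 (0.54) and F 1 (0.33) were high and the remaining 10 ran from -0.18 to 0.12.

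AMPA receptor subunits differed less. Gria3 (chrX:41400854-41678601), the member of its role with the smallest p, was 66.6, 78.8 and 72.6 FPKM in control, 85.8, 85.9 and 77.5 in F, 65.8, 69.7 and 73.7 in E and 76.2, 89.1 and 80.6 in RE. F and RE lay above E in every library (E minus F -0.25 ± 0.10, adjusted p = 0.357, and RE minus E 0.23 ± 0.10, adjusted p = 0.413 in limma). Gria1, the subunit whose insertion accompanies potentiation, was 94.8, 148 and 95.2 FPKM in control, 140, 102 and 97.8 in F, 97.7, 109 and 100 in E and 92.5, 105 and 97.4 in RE. Control 2 and F 1 were far above the other 10 libraries, which ran from 92.5 to 109 FPKM, and the interval of E minus F was -0.51 to 0.25. Gria2 and Gria4 gave -0.09 ± 0.08 and -0.00 ± 0.10 in that comparison, and Gria4 was higher in RE than in control (0.24 ± 0.10, adjusted p = 0.456 in limma, and 0.15 without control 1).

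Kainate receptor genes did not move as one. Grik3 (chr4:125490700-125714173) was 15.6, 15.8 and 14.8 FPKM in control, 18.2, 17.5 and 19.9 in F, 15, 15.7 and 16.4 in E and 18.1, 17 and 20.3 in RE. F and RE lay above control and E without overlap (F minus control 0.26 ± 0.10, adjusted p = 0.528, E minus F -0.24 ± 0.10, adjusted p = 0.382, in limma). Grik2, in contrast, was higher in E than in F by 0.40 ± 0.15 (adjusted p = 0.333 in limma), at 58.4, 61.2 and 53.1 against 48.8, 39.0 and 43.5 FPKM. Grik5, the most abundant of them, was 50.7, 56.7 and 48.4 FPKM in control, 63.6, 52.6 and 50.0 in F, 41.5, 57.5 and 46.5 in E and 51.2, 59.3 and 55.3 in RE, which overlapped. Grik1 was lower in RE than in control by -0.62 ± 0.28 (adjusted p = 0.497 in limma), with overlapping groups and -0.35 without RE 3, and Grik4 had no contrast with a p under 0.05. The delta receptor Grid1 (chr14:34820108-35583379) was 17.2, 22.0 and 16.2 FPKM in control, 19.7, 17.4 and 17.4 in F, 18.4, 22.0 and 18.5 in E and 17.5, 20.8 and 19.3 in RE, and no contrast had a p under 0.42. Its highest library in control, F, E and RE was again the one that stood apart. The Neto proteins, which modify kainate receptor kinetics, also had no p under 0.1: Neto1 was 35.4, 22.1 and 29.6 FPKM in control, 24.3, 28.0 and 31.2 in F, 32.2, 26.9 and 31.0 in E and 37.5, 25.6 and 34.7 in RE. Neto2 was 14.2, 13.5 and 12.4 FPKM in control, 10.3, 13.4 and 16.3 in F, 15.1, 13 and 15.4 in E and 22.3, 14.1 and 14.5 in RE, with RE 3 above all others.

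Retrieval-extinction was compared with extinction to ask what the reminder tone adds, and this comparison uses the same E libraries as the one above. Members were higher in RE for the most part: 29 of 42 (69%) had a fold change above 0 and 13 below 0, against 39.7% and 60.3% of all genes, and the median was 0.09 against -0.05. None passed an adjusted p of 0.05 in limma, where 0.614% of all genes did. At an unadjusted p under 0.05, 7 of 42 (16.7%) were higher (Grm2, Dlg4, Grin1, Grin2a, Grm3, Gria3 and Grik3) and 1 lower (Homer3), against 3.58% and 6.83% of all genes. Groups did not overlap for 10 members higher (23.8%, all genes 5.38%) and 2 lower (4.76%, all genes 10.2%). The count of 7 was 9 in the 8 libraries alone, 2 without E 1 and 1 without RE 5, and the share of all genes in those runs is not given. Beside this, 8 of 9 principal neuron markers were higher in RE (median 0.36, Neurod2 0.72 ± 0.14, adjusted p = 0.0423 in limma). GABAergic markers were lower in 4 of 6 (Gad2 -0.84 ± 0.10, adjusted p = 0.0125 in limma) and higher in 2. Hypothalamus markers were lower in RE in 6 of 6 tested (median -1.41), central amygdala markers in 7 of 7 (median -0.39, Nts -2.48 ± 0.43, adjusted p = 0.0361) and endothelial markers in 5 of 5 (median -0.92). The part of these in the members' differences was not tested.

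**Figure D3:**
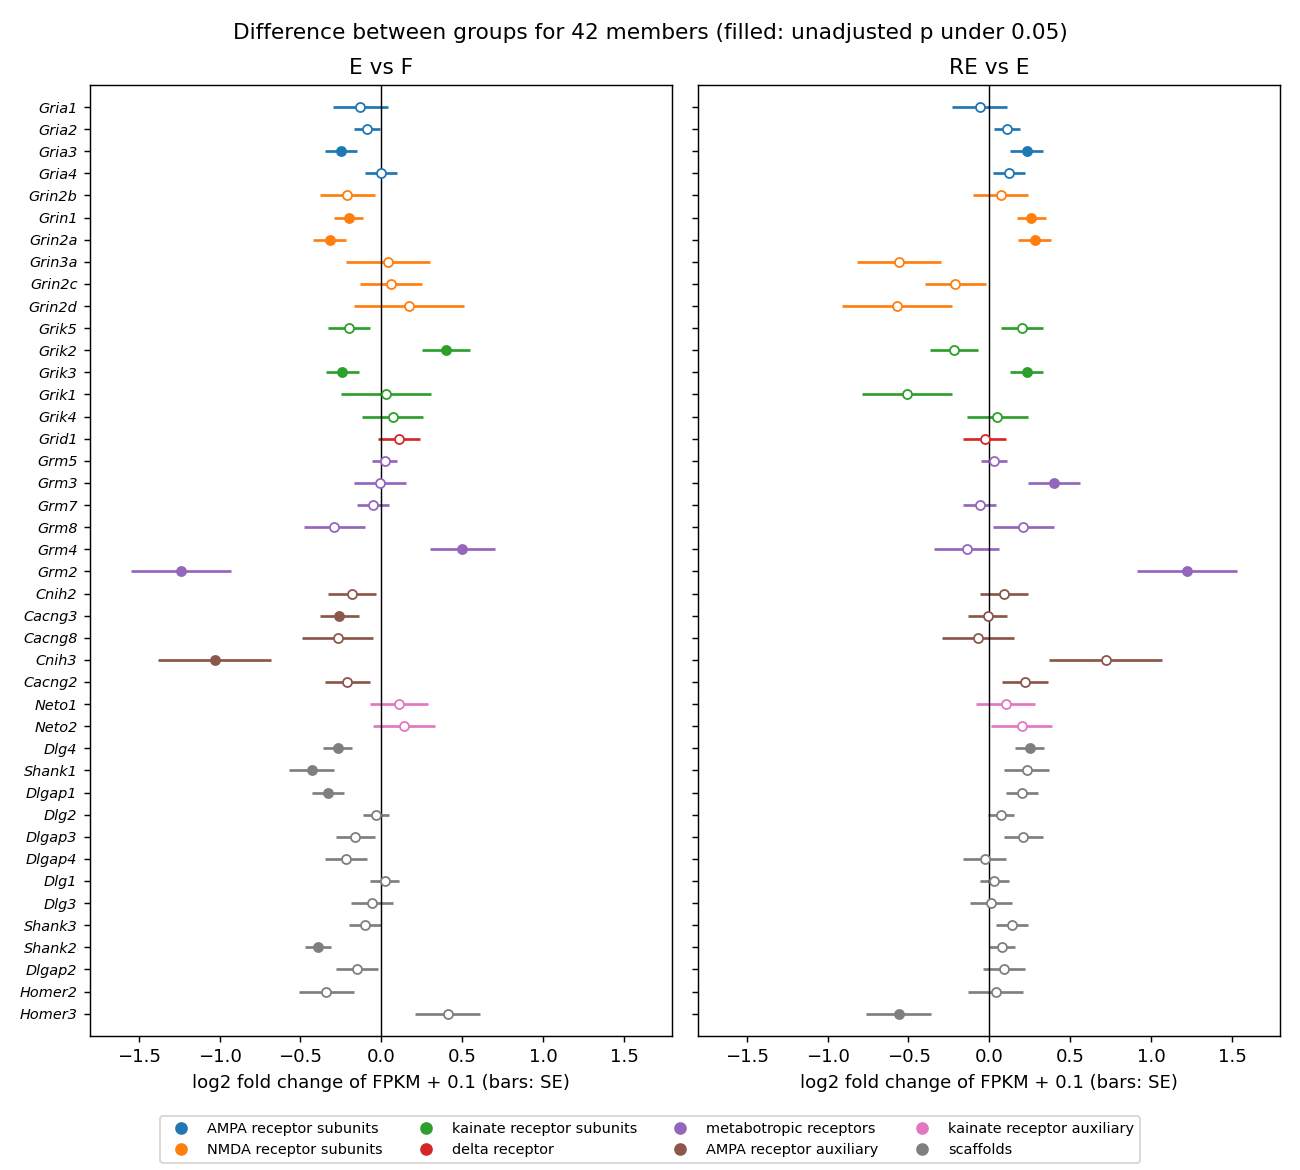
Log2 fold change (horizontal axis) with SE of the 42 tested members for E against F and RE against E, coloured by role, with filled points for an unadjusted p under 0.05. Filled points lie mainly below 0 for E against F (11 of 13) and above 0 for RE against E (7 of 8); both panels share the E libraries, and no adjusted p passed 0.05.

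Grm3, the group II metabotropic receptor carried by astrocytes as well as neurons (chr5:9485541-9725170, minus strand), was the member with the smallest p in RE against control. It measured 40.2, 27.8 and 38.3 FPKM in control, 31.4, 45.0 and 40.9 in F, 36.5, 36 and 43.0 in E and 52.7, 48.7 and 50.4 in RE. All 3 RE libraries lay above the other 9. RE minus control was 0.53 ± 0.16 (interval 0.19 to 0.87, adjusted p = 0.23), RE minus E 0.40 ± 0.16 (adjusted p = 0.385) and RE minus F 0.39 ± 0.16 (adjusted p = 0.67, all in limma). In the 8 libraries alone, RE minus control was 0.39 (adjusted p = 0.15) and RE minus F 0.26 (adjusted p = 0.332, both in limma). A covariate for control 2, F 1, E 2 and RE 4, which by its construction cannot move the fold change, gave an adjusted p of 0.0389 in limma for RE minus control. The summed astrocyte markers were 829 to 952 FPKM in control and 857 to 963 in RE, which overlapped.

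The other metabotropic receptors showed less. Grm5 was 80.0, 82.3 and 77.0 FPKM in control, 81.9, 78.0 and 79.1 in F, 78.7, 82.4 and 82.0 in E and 80.6, 87.8 and 79.9 in RE. Its E minus F difference was 0.02 with an interval of -0.14 to 0.19. Grm4, a presynaptic group III receptor, was higher in E than in F by 0.50 ± 0.20 (adjusted p = 0.368 in limma), at 8.18, 10.8 and 7.84 against 5.77, 5.31 and 7.78 FPKM. Grm7 and Grm8, receptors of that same group, had no contrast at a p under 0.05 in limma. For Grm8, E lay below F without overlap, and DESeq2 called this difference, as given below.

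Homer3, a Homer protein best known from cerebellum, went against the run of the scaffolds and was among the lowest of them. It was 2.13, 3.10 and 2.80 FPKM in control, 1.70, 2.19 and 1.74 in F, 2.41, 2.48 and 2.64 in E and 2.03, 1.42 and 1.62 in RE. RE lay below all control and E libraries. RE minus control was -0.63 ± 0.20 (adjusted p = 0.26), RE minus E -0.56 ± 0.20 (adjusted p = 0.319) and F minus control -0.48 ± 0.20 (adjusted p = 0.641, all in limma). It rested on 29 to 97 fragments per library, and its locus overlaps Ddx49 on the opposite strand, whose reads cannot be told apart from its own if counting ignored strand.

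**Figure D4:**
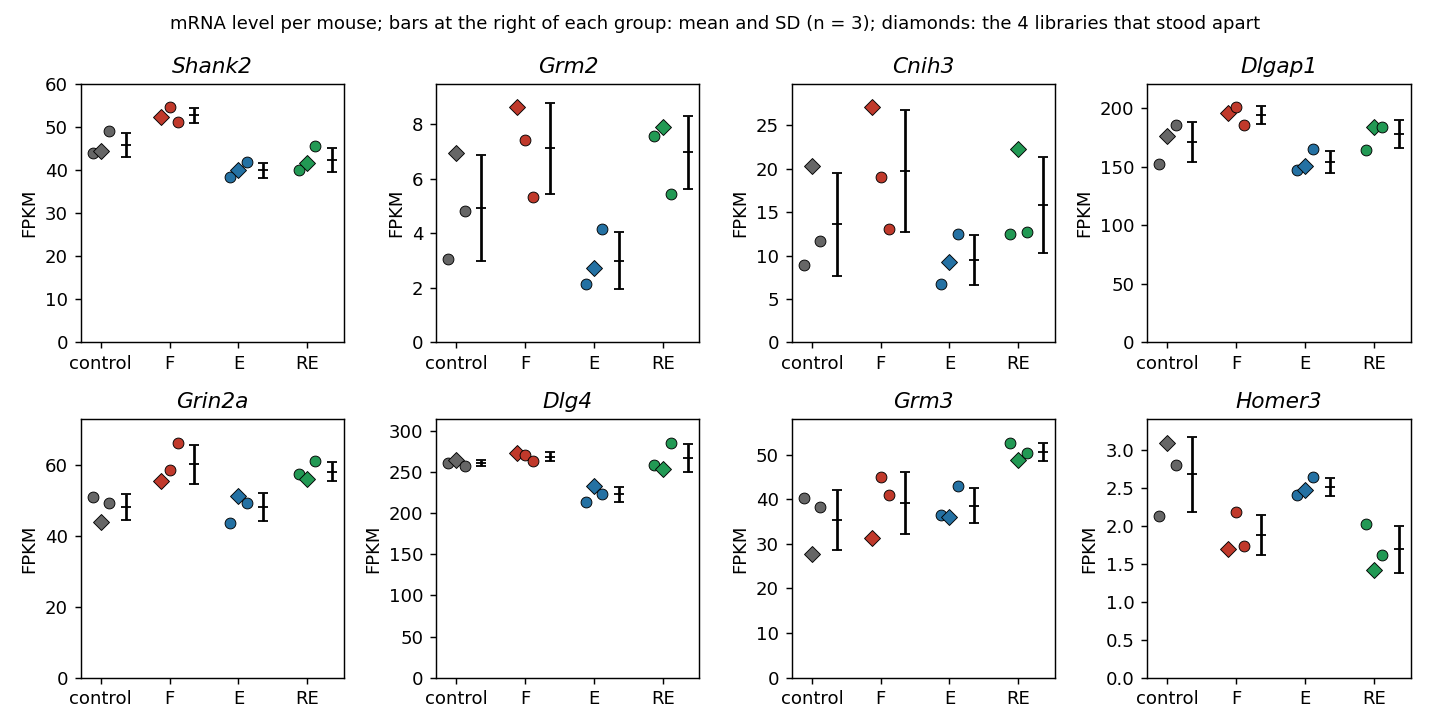
FPKM of 8 members in each mouse (points, from 0) with the mean and SD of 3 mice to the right of each group, and diamonds for control 2, F 1, E 2 and RE 4. Shank2, Dlgap1 and Dlg4 sit lower in E than in F, Grm2 is low in E and overlaps control, and all Grm3 values of RE lie above the rest.

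Fear conditioning was also set against controls, which had no shock, so fear learning and the shock itself cannot be told apart. Here 30 of 42 members were above 0 and 12 below (all genes 51.4% and 48.6%), with a median of 0.12 against 0.01. None passed an adjusted p of 0.05 in limma, where 0% of all genes did. At an unadjusted p under 0.05, 3 members (7.14%) were higher (Grin2a, Grik3 and Shank2) and Homer3 was lower (2.38%), against 4.19% and 2.89% of all genes. In 7 members (16.7%, all genes 7.51%) F lay above control without overlap: Grin2a, Grik3, Shank2, Dlgap4, Dlgap3, Gria2 and Dlg2. In 0 members did it lie below control (all genes 5.03%). Principal neuron markers were higher in F in 8 of 9 (median 0.45), oligodendrocyte markers lower in 7 of 7 (median -0.51) and GABAergic markers lower in 5 of 6 (Gad2 -0.44 ± 0.10, adjusted p = 0.231 in limma). Striatal markers were lower in 9 of 9 (median -0.49), microglia markers in 5 of 5 (median -0.25) and oligodendrocyte precursor markers in 3 of 3 (median -0.19). Endothelial markers were higher in 4 of 5 (median 0.19). The part of all these lists was not tested.

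For E against control, 0 of 42 passed the adjusted p (all genes 0%), and 3 (7.14%) were lower at an unadjusted p under 0.05 (Dlg4, Shank2 and Grm2, all genes 1.35%) and 0 higher (all genes 3.78%). Dlg4 and Shank2 lay below control without overlap (4.76%, all genes 3.02%) and 0 members above it (all genes 7.45%). In E, 9 of 9 principal neuron markers lay below control (median -0.31). Endothelial markers lay above it in 5 of 5 (median 0.77), striatal markers in 9 of 9 (median 0.67) and GABAergic markers in 5 of 6 (median 0.30). The part of these lists was not tested. For RE against control 0 of 42 passed (all genes 0.0666%), with 4 (9.52%) higher at an unadjusted p under 0.05 (Grm3, Grin2a, Grik3 and Gria4, all genes 4.7%) and 3 (7.14%) lower (Homer3, Grin3a and Grik1, all genes 4.95%). Without overlap, 9 members (21.4%, all genes 6.51%) lay above control, among them Grin1, Gria2, Cacng2, Dlg1 and Dlg2, and Homer3 alone below (2.38%, all genes 6.14%). Central amygdala markers were lower in RE than in control in 7 of 7 (median -0.69) and hypothalamus markers in 6 of 6 tested (median -0.97), and their part was not tested. RE against F had 0 of 42 passing (all genes 0%), 1 higher (Grm3, 2.38%, all genes 2.84%) and 2 lower (Shank2 and Cacng3, 4.76%, all genes 4.19%). Groups did not overlap for Grm3 and Gria4 above F (4.76%, all genes 4.81%) and for Shank2, Dlgap4 and Dlgap1 below it (7.14%, all genes 6.39%). The shares for RE against F are near those of all genes. Oligodendrocyte markers were higher in RE than in F in 7 of 7 (median 0.64), striatal markers in 9 of 9 (median 1.02) and microglia markers in 5 of 5 (median 0.37). Lower in RE were central amygdala markers in 7 of 7 (median -0.77), endothelial in 5 of 5 (median -0.58) and principal neuron in 8 of 9 (median -0.21). Their part was not tested.

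The count of calls depended on the model. Counting fragments recovered from the deposited estimated counts, DESeq2 called 9 members for E against F (21.4%, all genes 3.58%), namely Grm2, Dlgap1, Shank2, Shank1, Dlg4, Gria3, Cnih3, Grik2 and Grm8, and 3 for RE against E (7.14%, all genes 3.55%), Grm2, Gria3 and Dlg4. In the remaining 4 contrasts it called 0 members, against 0.244% to 3.28% of all genes. The quasi-likelihood test of edgeR on the same fragments called 0 members in each of the 6 contrasts, against 0% to 1.28% of all genes.

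Other genes of the glutamate synapse were taken from a list of 57 that is not among the members, of which 56 were tested. In E against F, 38 were lower and 18 higher (median -0.09), with 8 and 2 at an unadjusted p under 0.05 and none past the adjusted p in limma. Of all genes, 45.7% were lower and 54.2% higher, with 4.53% and 6.27% at that unadjusted p. By sub-list, 13 of 16 postsynaptic density enzymes and adaptors were lower, with Camk2a, the kinase subunit that drives potentiation and a principal neuron marker as well, at -0.45 ± 0.11 (adjusted p = 0.145), and 8 of 10 trafficking genes were lower, with Iqsec2, an Arf exchange factor, at -0.34 ± 0.08 (adjusted p = 0.127, both in limma). Slc17a8, the vesicular transporter VGLUT3, stood out in the other direction at 1.28 ± 0.40 (adjusted p = 0.234 in limma). Its level was low, with means of 0.693 FPKM in F and 1.71 in E, near the 0.5 FPKM needed for testing. Of the 9 adhesion partners tested 5 were lower.

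Cacng5 was the one gene of this list called in limma in any contrast. This auxiliary AMPA receptor protein was 7.20, 5.30 and 6.74 FPKM in control, 5.17, 4.82 and 5.24 in F, 8.19, 8.24 and 7.31 in E and 2.18, 4.32 and 4.18 in RE. E and RE did not overlap, and RE minus E was -1.19 ± 0.22 (adjusted p = 0.0422), a call that was lost without any 1 of 10 libraries (all but control 2 and RE 4). Frrs1l, which helps AMPA receptors to assemble, was 77.6, 79.4 and 74.5 FPKM in RE against 54.3, 55.2 and 53.8 in control (0.50 ± 0.09, adjusted p = 0.0537 in limma), and Kalrn, which shapes dendritic spines, 184, 169 and 195 against 124, 110 and 135 (0.57 ± 0.12, adjusted p = 0.109 in limma).

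Circular RNAs gave a readout that does not use the mRNA levels. They arise when a downstream exon end is joined back to an upstream exon start, and are counted by reads across that junction. Of the circRNAs with a member as host gene, 141 from 31 members were in the table, and 35 from 17 members had at least 10 reads over all libraries. The 141 held 2147 of 180744 junction reads, and the 35 held 1762. Dlgap1 gave 690 reads over 5 circRNAs, Dlg1 210 over 6, Grin2b 171 over 2 and Shank3 156 over 2. In all 35 the genome had AG before the first and GT after the last base of the circle, as splice sites do.

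The 6 most counted are printed as the 20 bases on each side of the junction, 5′ to 3′ on the host's strand (GRCm38.p6), with the 5 bases on each side of the join in capitals. The join of these bases, not the bases themselves, separates the circle from its linear mRNA.
Dlgap1, chr17:70761075-70787209: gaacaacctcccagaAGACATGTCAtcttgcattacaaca
Shank3, chr15:89543100-89549882: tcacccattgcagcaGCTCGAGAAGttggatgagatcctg
Dlgap1, chr17:70761075-70766089: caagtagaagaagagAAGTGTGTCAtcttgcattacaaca
Grin2b, chr6:135772193-135780336: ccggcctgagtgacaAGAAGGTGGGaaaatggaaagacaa
Dlg1, chr16:31796866-31812824: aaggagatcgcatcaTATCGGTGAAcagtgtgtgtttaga
Grin2b, chr6:135922872-135923470: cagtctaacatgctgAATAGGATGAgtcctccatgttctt
Both Dlgap1 circles open at the same exon start, so their junctions have the same letters on the right and differ on the left.

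The first Dlgap1 circle had 540 of these 1762 reads, at 77, 44 and 68 in control, 41, 48 and 42 in F, 17, 31 and 48 in E and 53, 29 and 42 in RE. Per 1000000 junction reads of the library, this was 3625 ± 1278 in control, 3683 ± 1306 in F, 2664 ± 1191 in E and 2619 ± 1068 in RE (SD, n = 3), and the spread exceeded the differences. No member circRNA passed an adjusted p of 0.05 in any contrast in edgeR (0% of the 3241 tested) or in DESeq2. At an unadjusted p under 0.05, 5 of 35 (14.3%) passed in RE against F, where 4.91% of all circRNAs did, and 1 (2.86%) in RE against control, where 3.73% did. In the other 4 contrasts 0 of 35 passed, where 4.2% to 5.09% of all circRNAs did. The smallest p was for a Grin3a circle (chr4:49770419-49793032), which had 6, 6 and 1 reads in F and 0, 1 and 0 in RE (adjusted p = 0.994 in edgeR). Next came the Grin2b circle at chr6:135922872-135923470 with 18, 8 and 3 reads in F and 3, 9 and 0 in RE, and the 4 others of smallest p, from Dlgap1 (a pair of circles), Grm7 and Gria2, had 10 to 13 reads in all. At such counts only large differences could be seen.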

How the data were processed

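The authors depleted ribosomal RNA, made directional libraries, aligned paired reads to mouse mm10 with HISAT2 and computed FPKM with cuffdiff. The deposited estimated counts beside them were already scaled per library, and dividing by the value of 1 fragment gave whole numbers (within 0.05) for 92.24 to 93.02% of values, which were then rounded and used as an alternative only. For circRNA the deposited counts are raw junction reads from STAR and DCC; the log2 CPM beside them and the lncRNA table were not used. The submitters' notes also name CASAVA 1.8, BWA and a human build, but the coordinates are mouse. Whether counting used strand is not given in the sources used here.

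Levels were analysed as log2(FPKM + 0.1) in limma 3.58.1 (R 4.3.3; mean trend, 12 libraries in 1 fit, 13517 genes whose mean reached 0.5 FPKM), and junction reads in edgeR 4.0.16 (quasi-likelihood, 3241 circRNAs with at least 10 reads; 7324 to 23446 junction reads per library). DESeq2 1.42.0 was an alternative, and a p for mRNA given without a model is from limma. Tests are two-sided, with Benjamini-Hochberg adjustment per contrast over all features, and fold changes on this scale understate those of low genes. Members, lists, markers and the set of 4 libraries that stood apart were chosen with earlier results of these data known. Values per library are given for the member of smallest p over the 4 groups and of highest mean in each role, and those of Grm3, Homer3, Dlgap1, Grik2, Grm4, Frrs1l and Kalrn were added after their values were seen. Methods were run on simulated data drawn without the difference between those 4 libraries and the rest. Such runs cannot show how the tests behave under that difference. Positions are from GENCODE M21 and promoters from RefSeq.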

Additional observations from a re-analysis of the deposited data

How the results depend on the processing

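No member difference at an unadjusted p under 0.05 changed sign in any alternative run. The count of members past the adjusted p, 0 in each contrast, became 1 with a covariate for control 2, F 1, E 2 and RE 4 for E against F (Shank2) and for RE against control (Grm3), without any change in fold, and 9 and 3 with DESeq2 on recovered fragments for E against F and RE against E. It stayed at 0 without each library in turn, and with a replicate block in the contrasts without RE. The numbers of RE 4 and RE 5 occur in no other group. Such a block therefore leaves RE to RE 3 alone, and its counts for contrasts with RE are not given. Members lower in E than in F at an unadjusted p under 0.05 numbered 11. They were 15 with the same covariate, 14 with edgeR and 16 with DESeq2 on recovered fragments, and 6 to 12 with 1 library left out. Members higher in RE than in E numbered 7, and were 11 with libraries shifted to a common median, 12 with edgeR and 12 with DESeq2 on recovered fragments, and 1 to 8 with 1 library left out. Shares of all genes at that p are given for the main run only, so these changes cannot be read as particular to the members. Same-numbered libraries correlated at -0.305 to 0.236 in their deviations from group means, and differently numbered ones at -0.295 to 0.374. These ranges nearly coincide, and they do not settle whether the replicate numbers pair the samples.

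In the list of other synaptic genes, the 1 call for RE against E (Cacng5) became 4 with the same covariate and 0 to 1 with 1 library left out. For RE against control, 0 became 3 with it and 0 to 1 with 1 library left out. The share of all genes called with this covariate is not given. The increases in this list and among the members therefore cannot be read as particular to either set. For the circRNAs, 0 stayed 0 in all alternatives run, leaving aside the replicate block for contrasts with RE. The cause of these changes was not tested. With 3 mice a group, the 95% interval of E minus F for a scaffold such as Shank2 spanned -0.58 to -0.21. Those of Grm2 and Cnih3, at as few as 65 and 163 fragments, were several times wider. That of Homer3, at as few as 29 fragments, was -0.02 to 0.84. The part of fragment number in these widths was not tested.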
